A study of Mus musculus with 4 samples.

Results

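The sebaceous gland lipid genes described here are 10 genes of sebocytes, the lipid-filled cells of the gland attached to each hair follicle: Scd3, Dgat2, Dgat2l6, Awat2, Elovl3, Mc5r, Cidea, Plin2, Pparg and Far2. They were picked by symbol from a table of 55536 mouse genes, and all 10 were present and passed the filter on low counts. The table holds RNA sequencing counts for bulge cells, which hold the stem cells of the hair follicle, from skin of C57BL/6 mice at postnatal day 20. The knockout group (2 libraries) carried Cdh5CreERT2 and Alk1 flox/flox, so that Alk1, the receptor encoded by Acvrl1, was deleted by a tamoxifen-activated Cre under the promoter of the endothelial cadherin gene Cdh5. The control group (2 libraries) came from Cre-negative littermates, whose Alk1 alleles the labels do not describe. Mice of both groups received 100 µg of tamoxifen per g of body weight into the peritoneum at postnatal day 17, 3 days before sampling. Deletion was therefore directed at blood vessels and not at the cells that were sequenced. The labels number the mice 1 and 2 in each group without saying whether a library came from 1 animal or from several, and p-values measure the spread between these libraries.

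Sebocytes mature by filling with lipid droplets and then burst to release sebum, a mixture rich in triglycerides, wax esters and cholesterol esters. Fatty acids are first elongated and desaturated, a part of them is reduced to fatty alcohols, and acyltransferases then join the pieces into storage lipids that are packed into droplets. The nuclear receptor encoded by Pparg drives sebocyte maturation, and the melanocortin receptor encoded by Mc5r is needed for normal sebum output in mice. Sebaceous glands lie directly above the bulge, so a bulge preparation can hold some of their cells.

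Scd3 (chr19:44203269-44244016, GRCm38) is in a cluster of 4 stearoyl-CoA desaturase genes with Scd1, Scd2 and Scd4 that spans 204.6 kb of chromosome 19. Awat2 (chrX:100402221-100442717) and Dgat2l6 (chrX:100524838-100546144) are neighbours of Awat1 in a stretch of 176.0 kb on chromosome X that holds 3 acyltransferase genes. Dgat2 lies on chromosome 7, Plin2 on chromosome 4, Pparg and Far2 on chromosome 6 and Elovl3 on chromosome 19.

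Promoters in the RefSeq table (build GRCm38.p6) were matched for 6 of the 10 members. The 250 bases before the annotated start site are shown for Scd3, Awat2 and Dgat2l6, which had the lowest knockout over control values, and for Plin2, whose level varied little. Capitals mark matches on either strand to AGGTCA, the hexamer read by nuclear receptors such as PPARG, to the E-box CACGTG, to CCAAT or to TATAAA.
Scd3, chr19:44203038-44203287, plus strand: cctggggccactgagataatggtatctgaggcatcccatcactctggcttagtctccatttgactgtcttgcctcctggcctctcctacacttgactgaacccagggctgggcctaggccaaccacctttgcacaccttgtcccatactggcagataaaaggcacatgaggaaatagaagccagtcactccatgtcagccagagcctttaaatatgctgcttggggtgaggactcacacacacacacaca
Awat2, chrX:100442718-100442967, minus strand: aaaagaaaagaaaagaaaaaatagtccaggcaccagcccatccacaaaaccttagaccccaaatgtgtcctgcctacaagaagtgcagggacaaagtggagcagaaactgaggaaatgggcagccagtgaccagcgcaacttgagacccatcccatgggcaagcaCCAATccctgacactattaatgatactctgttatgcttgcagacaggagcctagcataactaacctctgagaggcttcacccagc
Dgat2l6, chrX:100524588-100524837, plus strand: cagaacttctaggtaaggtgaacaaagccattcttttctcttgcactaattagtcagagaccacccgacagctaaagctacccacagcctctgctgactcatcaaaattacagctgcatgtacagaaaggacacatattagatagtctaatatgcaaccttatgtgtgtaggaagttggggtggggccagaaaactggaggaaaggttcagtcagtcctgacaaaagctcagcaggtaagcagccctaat
Plin2, chr4:86670060-86670309, minus strand: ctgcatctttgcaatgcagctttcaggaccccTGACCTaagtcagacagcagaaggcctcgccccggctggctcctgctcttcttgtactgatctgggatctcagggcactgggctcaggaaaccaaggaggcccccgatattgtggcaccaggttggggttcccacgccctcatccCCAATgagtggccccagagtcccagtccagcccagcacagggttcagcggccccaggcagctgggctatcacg
AGGTCA or its reverse complement TGACCT was found in the Plin2 window, starting 218 bases before the start site, and in 2 of 3 Pparg windows. It was not found in the windows of Scd3, Awat2, Dgat2l6 or Far2. Of 32851 promoter windows of the same length, 14.0% held it. The direct repeat AGGTCANAGGTCA, which has 1 free base between both copies and overlaps the hexamer search, was in none of the members' windows and in 0.033% of all windows. CCAAT was in the windows of Awat2, Plin2 and Pparg and in 33.9% of all windows, TATAAA in 1 Pparg window and 12.4% of all, and CACGTG in no member window and 6.02% of all.

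Library totals ran from 16326906 counts in control 1 to 29130974 in control 2, and the filter kept 14259 of the 24037 genes detected. Levels below are CPM, counts scaled to the library size after TMM normalization. The bulge identity of the libraries was plain in the markers, with Krt15 between 29088 and 36017 CPM and all 11 bulge markers detected. Acvrl1 gave 17.9 and 23.1 CPM in knockouts and 21.6 and 24.3 CPM in controls. Whole-gene counts from bulge cells do not check a deletion in endothelium.

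All 10 members had a lower mean in knockouts than in controls, by a median of -0.78 on the log2 scale, against a median of -0.021 over all tested genes, of which 52.5% were below 0. None of the 10 passed the edgeR quasi-likelihood test at an adjusted p of 0.05. Over all genes that test called 0% lower and 0.00701% higher. At an unadjusted p under 0.05, 1 of the 10 members was lower, Scd3, and 0 were higher, against 5.94% of all tested genes lower and 4.8% higher. Without control 1 the median was 0.14 and 6 of the 10 were above 0. For 9 of the 10, all but Scd3, the larger of the 2 differences within a group exceeded the difference between groups. Control 1 had the highest level of all 10 members, and knockout 2 had the lowest of 9. All 10 were lower in control 2 than in control 1, and 9 were lower in knockout 2 than in knockout 1, where 23.8% of all tested genes were lower in number 2 of both groups. Of all tested genes, 10.9% had control 1 highest and knockout 2 lowest. In whole libraries, fewer sebocytes and less RNA per sebocyte cannot be told apart.

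**Figure D1:**
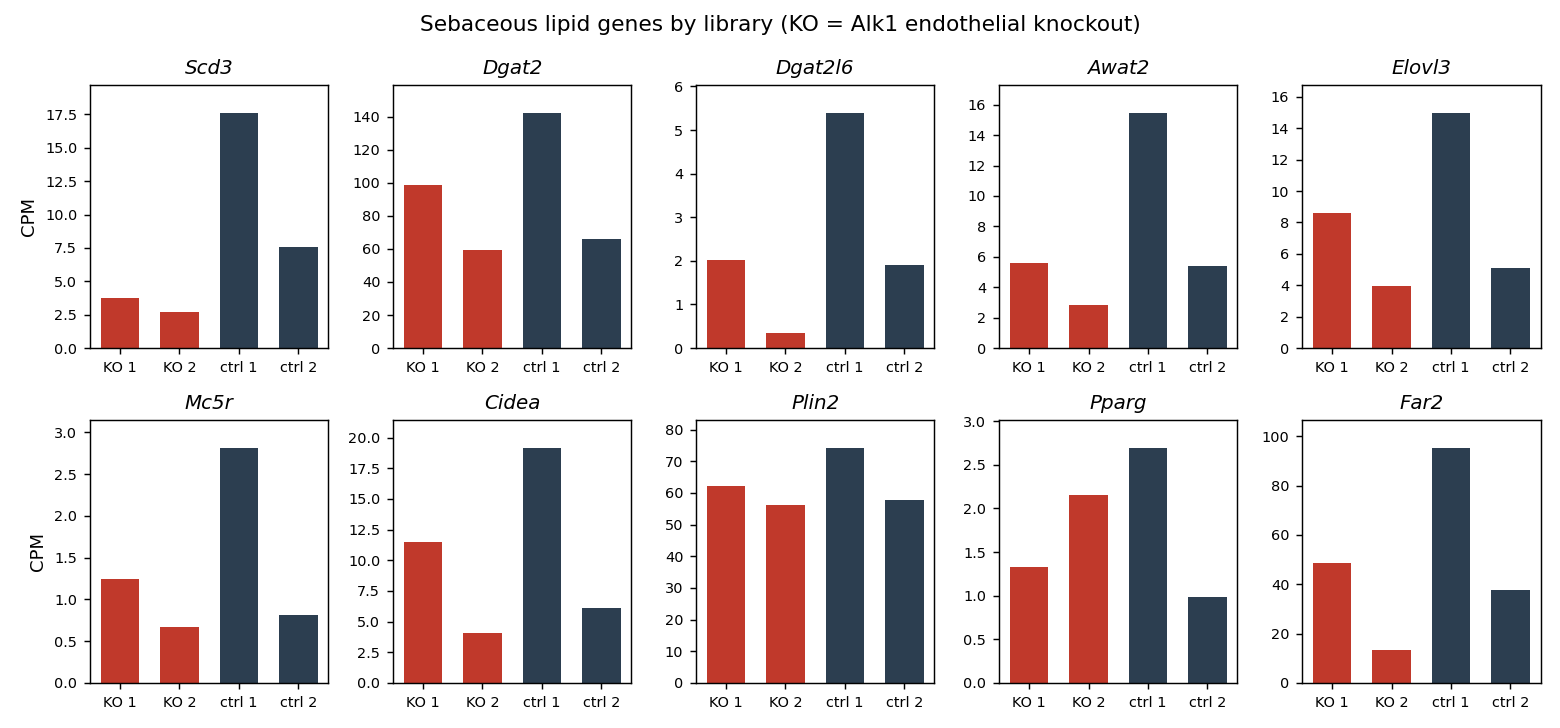
Bars give the level of each of the 10 genes in CPM (y axis, from 0, own scale per gene) in knockout libraries 1 and 2 (red) and control libraries 1 and 2 (dark). Control 1 is the tallest bar in all 10 panels, and Scd3 is the gene whose 2 knockout bars both lie below both control bars.

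Scd3, a mouse enzyme that puts a double bond into saturated fatty acids, was the member whose groups did not overlap. It measured 3.72 and 2.73 CPM in knockouts, against 17.6 and 7.55 CPM in controls. Both knockout libraries were thus below both controls, which held for 1 of the 10 members and 23.6% of all tested genes. The means were 3.23 ± 0.70 CPM in knockouts and 12.6 ± 7.1 CPM in controls (SD, n = 2 each), a log2 difference of -1.95 ± 0.45 (SE of the fit; edgeR adjusted p = 0.43). DESeq2 called Scd3 as its 1 member (log2 fold change -1.94, adjusted p = 0.0091), where it called 0.54% of genes lower and 0.262% higher. Without a count filter, edgeR called 3 members lower, Scd3, Awat2 and Dgat2l6, with 1.11% of genes called lower and 0.678% higher. Its adjusted p ran from 1.6e-07 to 0.98 over the 12 alternative fits, and the log2 fold change stayed below 0 in all 12, from -2.42 to -1.22. Of the 50-base windows in Scd3 transcripts, 6.54% also occur in transcripts of other genes, Scd1 first among them, so part of its reads may be shared.

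Elovl3 lengthens saturated and monounsaturated fatty acids to very long chains in sebaceous glands and brown fat of mice. It measured 8.60 and 3.93 CPM in knockouts and 15.0 and 5.11 CPM in controls. The groups overlapped, with a fitted log2 fold change of -0.66 ± 0.58 (edgeR adjusted p = 0.69). Far2, which reduces fatty acyl-CoA to the fatty alcohols used in waxes, measured 48.6 and 13.4 CPM in knockouts and 95.3 and 37.6 CPM in controls. Knockout 1 lay between the controls and knockout 2 below both, with a log2 fold change of -1.09 ± 0.65 (adjusted p = 0.56). The difference between the 2 knockout libraries, -1.86 on the log2 scale, was larger than the difference between the groups.

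The acyltransferases came next in the pathway. Awat2, which joins fatty alcohols and acyl chains into wax esters, measured 5.56 and 2.83 CPM in knockouts and 15.4 and 5.42 CPM in controls. Knockout 1 and control 2 were close together, with a fitted log2 fold change of -1.30 ± 0.56 (edgeR adjusted p = 0.47). Dgat2l6, a member of the same enzyme family, was scarce, with 44 and 7 counts in knockouts and 90 and 56 in controls. That is 2.02 and 0.335 CPM in knockouts and 5.39 and 1.90 CPM in controls, with a log2 fold change of -1.59 ± 0.84 (adjusted p = 0.52). The 7 counts of knockout 2 have an exact 95% Poisson interval of 2.81 to 14.4 counts, for counting error alone. Dgat2, the enzyme of the last step of triglyceride synthesis, measured 98.5 and 59.1 CPM in knockouts and 142 and 66.2 CPM in controls. Its groups overlapped, with a log2 fold change of -0.40 ± 0.39 (adjusted p = 0.72). Per kilobase of exon, Dgat2 had the highest level of the members in both groups, at 25.6 CPM per kb in knockouts and 33.8 CPM per kb in controls. On the same scale Awat2 had 1.97 CPM per kb in knockouts and 4.91 in controls, and Dgat2l6 0.249 in knockouts and 0.768 in controls.

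Of the lipid droplet genes, Cidea, which promotes fusion of droplets, followed the gland enzymes. It measured 11.5 and 4.07 CPM in knockouts and 19.2 and 6.10 CPM in controls, a log2 fold change of -0.68 ± 0.65 (edgeR adjusted p = 0.71). Each group spanned more than a doubling between its libraries, and the groups overlapped. Plin2, the droplet coat protein found in most cell types, measured 62.1 and 56.1 CPM in knockouts and 74.2 and 57.7 CPM in controls. Its 4 libraries were close to each other, with a log2 fold change of -0.16 ± 0.16 (adjusted p = 0.73). A pseudogene, Gm12551, shares 2.57% of the 50-base windows of Plin2.

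The regulators were both scarce. Mc5r measured 1.24 and 0.671 CPM in knockouts and 2.81 and 0.813 CPM in controls, from 14 to 47 counts per library. Its log2 fold change was -0.87 ± 0.69 (edgeR adjusted p = 0.66), and the groups overlapped. Pparg measured 1.33 and 2.16 CPM in knockouts and 2.69 and 0.982 CPM in controls, from 29 to 45 counts per library. It was the 1 member with knockout 2 above knockout 1, and its log2 fold change was -0.037 ± 0.58 (adjusted p = 0.98).

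The share of gland signal in each library was read from 10 sebocyte markers that are not members. Their mean centred log2 level was 0.15 and -0.63 in knockouts and 0.85 and -0.36 in controls, and that of the 10 members was 0.039 and -0.88 in knockouts and 1.08 and -0.24 in controls. Both profiles were highest in control 1, then knockout 1, control 2 and knockout 2. No marker passed the test, 8 of 10 had a log2 fold change below 0, and their median was -0.52. Scd1, a desaturase of many tissues and the marker of highest CPM, measured 182 and 121 CPM in knockouts and 319 and 124 CPM in controls (-0.54 ± 0.43, edgeR adjusted p = 0.66). The elongase Elovl5 gave -0.50 ± 0.24 (adjusted p = 0.49). The apolipoprotein gene Apoc1 gave 0.29 ± 0.21 (adjusted p = 0.64), against the direction of the list. Awat1, the neighbour of Awat2 and Dgat2l6, measured 7.58 and 2.06 CPM in knockouts and 18.8 and 6.81 CPM in controls. The lipase-family gene Pnpla5 measured 7.54 and 2.16 CPM in knockouts and 19.0 and 6.44 CPM in controls. Awat1 and Pnpla5, named after their values were seen, thus had nearly equal CPM in each library.

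The libraries also differed in the RNA of marker genes of the skin surface, where cell number and RNA per cell cannot be told apart. The 9 interfollicular differentiation markers summed to 12148 and 6025 CPM in knockouts and 17470 and 6489 CPM in controls, in the same order of libraries as the members. None passed the test, 8 of 9 had a log2 fold change below 0, and the median was -0.54. The suprabasal keratins Krt10 and Krt77 gave -0.54 ± 0.61 and -0.56 ± 0.62 (edgeR adjusted p = 0.76 and 0.75), and Dmkn gave 0.0035 ± 0.26 (adjusted p = 0.995). The mean over the bulge markers varied far less, with centred log2 levels of -0.029 and 0.039 in knockouts and -0.066 and 0.055 in controls. The median log2 fold change of these markers was -0.069, with 0 of 11 called. Single markers varied more than this mean. Both knockouts were above both controls for 2 of 11 and below for 1, against 21.3% and 23.6% of all tested genes. Krt14, named after its values were seen, gave 6879 and 5520 CPM in knockouts and 4594 and 3703 CPM in controls. Krt15, Krt5 and Postn, the 3 of highest CPM, gave 0.16 ± 0.13, 0.016 ± 0.16 and -0.25 ± 0.21 (adjusted p = 0.68, 0.97 and 0.67). The part of surface epidermis in the members' levels was not tested.

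**Figure D2:**
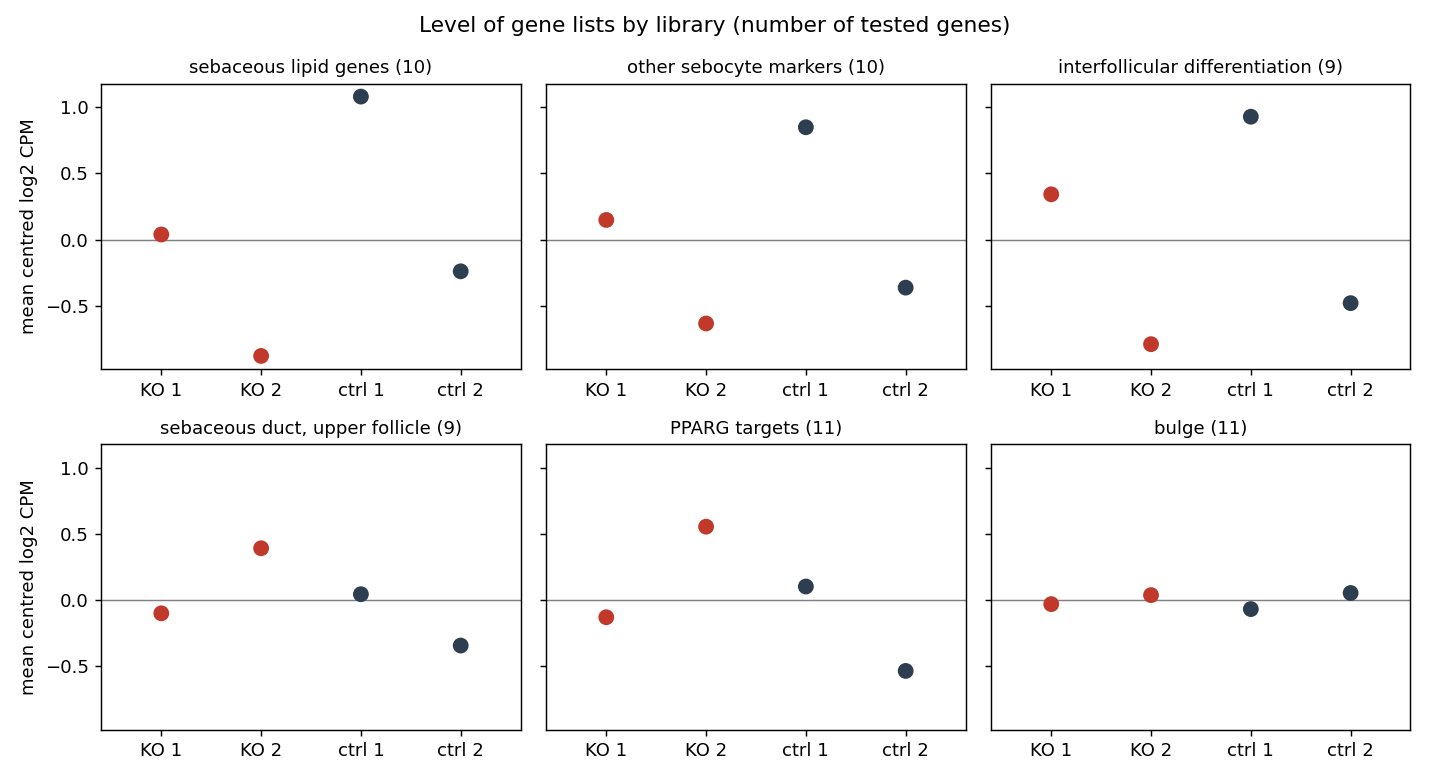
Points give the mean centred log2 CPM (y axis) of 6 gene lists in knockout libraries 1 and 2 (red) and control libraries 1 and 2 (dark). The members, the other sebocyte markers and the interfollicular genes share 1 order of libraries with control 1 highest, while bulge markers stay between -0.066 and 0.055.

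Of the markers of other lipid-storing cells, Adipoq, Retn and Ucp1, which define white and brown fat, had 0 counts in every library, and Plin1 had 0 and 1 counts in knockouts and 1 and 0 in controls. Lipe, a lipase of fat cells and other tissues, measured 10.3 and 17.6 CPM in knockouts and 14.3 and 14.7 CPM in controls. Fabp4, a fatty acid carrier of fat cells, macrophages and endothelium, measured 0.965 and 3.64 CPM in knockouts and 2.27 and 1.59 CPM in controls. These 2 of 9 adipocyte markers were tested, with log2 fold changes of -0.058 ± 0.28 and 0.26 ± 0.64 (edgeR adjusted p = 0.95 and 0.89). The 7 immune markers summed to 18.1 and 27.1 CPM in knockouts and 19.1 and 14.9 CPM in controls, and 0 of 6 tested were called. Cd68, a lysosomal protein of macrophages, gave 4.92 and 12.8 CPM in knockouts and 3.95 and 3.69 CPM in controls (1.21 ± 0.47, adjusted p = 0.45). Csf1r and Cd207 gave 0.065 ± 0.29 and -0.27 ± 0.39 (adjusted p = 0.94 and 0.81). Cd68 was highest in knockout 2. Pparg, which macrophages also express, was higher in knockout 2 than in knockout 1 but highest in control 1, at 2.69 CPM. Adgre1 and Lyz2, of the same immune list, were named after their values were seen. Adgre1 gave 1.06 and 1.39 CPM in knockouts and 1.26 and 0.711 CPM in controls. Lyz2 had 2 and 2 counts in knockouts and 3 and 22 in controls. A link between Cd68 and Pparg was not tested. Endothelial markers summed to 21.9 and 38.0 CPM in knockouts and 30.0 and 28.5 CPM in controls, mostly Acvrl1, with 0 of 3 tested genes called. Tek and Pecam1 gave 1.54 ± 0.58 and -0.62 ± 0.88 (adjusted p = 0.44 and 0.80). Cdh5, Kdr and Emcn were too scarce to test. Cdh5 had 3 and 3 counts in knockouts and 23 and 9 in controls. Kdr had 2 and 17 counts in knockouts and 5 and 11 in controls, and Emcn 3 and 8 in knockouts and 4 and 2 in controls.

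The comparison was also made with the level of the sebocyte markers taken into account, in 2 ways. This level and that of the interfollicular markers, at 0.34 and -0.79 in knockouts and 0.93 and -0.48 in controls, shared their order of libraries. Gland content and surface epidermis thus cannot be told apart by this level. First, the mean centred level of the 10 other sebocyte markers was entered into the edgeR fit as a covariate. The members' median log2 fold change was then -0.044, against -0.78 without it, and 0 of 10 members were called, with 0.0912% of genes called lower and 0.014% higher. Dgat2, Elovl3 and Cidea turned to 0.10 ± 0.19, 0.057 ± 0.32 and 0.095 ± 0.30 (edgeR adjusted p = 0.95, 0.99 and 0.97), and Pparg to 0.39 ± 0.67 (0.94). Mc5r and Plin2 gave -0.070 ± 0.58 and -0.018 ± 0.20 (0.99 for both). Scd3 gave -1.42 ± 0.34 (adjusted p = 0.28), against -1.95 without the covariate. Dgat2l6 gave -0.91 ± 0.53, against -1.59, Awat2 -0.60 ± 0.33, against -1.30, and Far2 -0.48 ± 0.28, against -1.09 (adjusted p = 0.84, 0.83 and 0.84 with the covariate). This fit leaves 1 residual degree of freedom per gene. Its prior degrees of freedom were 11.2, against 4.17 without the covariate, so a gene's own spread weighed less in its SE and p. A knockout effect that all sebocyte genes shared would be removed with the covariate.

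**Figure D3:**
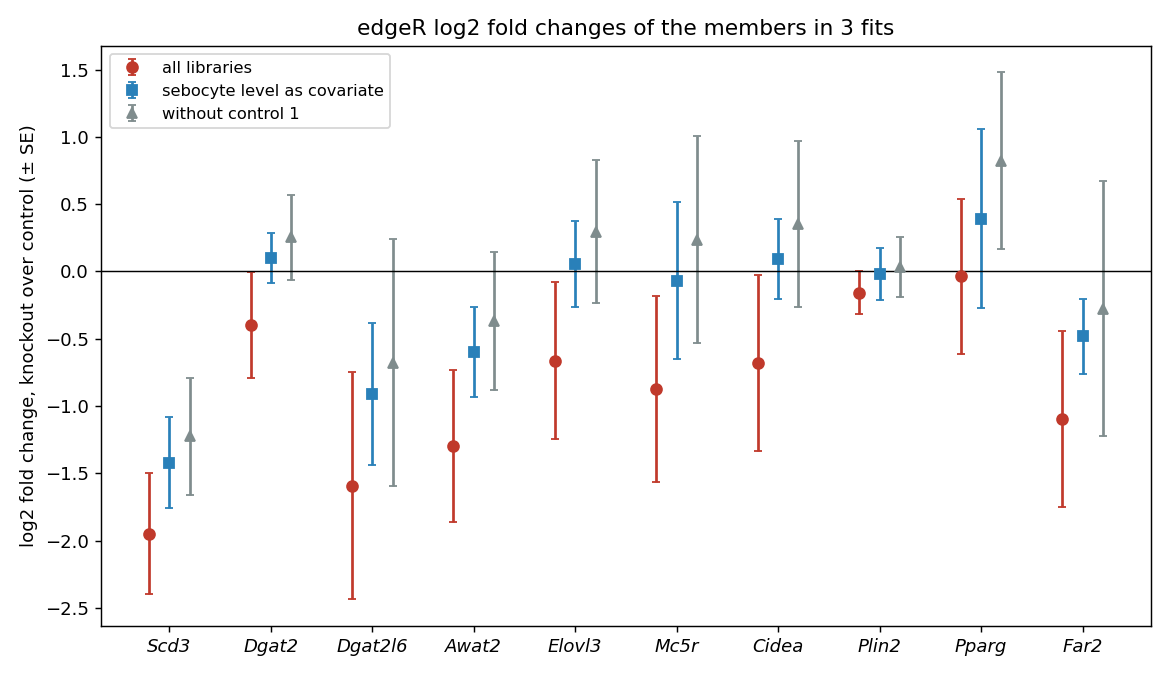
Points give the log2 fold change of each member, knockout over control, with SE bars, from edgeR with all 4 libraries (red circles), with the sebocyte level as a covariate (blue squares) and without control 1 (grey triangles). Scd3 lies below 0 by more than its SE in all 3 fits, from -1.95 to -1.22, while 6 members lie above 0 without control 1.

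Second, each member was read relative to that sebocyte level within its own library. Scd3 was then -0.84 and -0.50 in knockouts and 0.67 and 0.67 in controls on the log2 scale, a difference of -1.34. Dgat2l6, Awat2 and Far2 were also lower in both knockouts than in both controls, by -1.31, -0.70 and -0.74. For Dgat2l6 and Far2 the 2 knockouts stood apart, at 0.11 and -1.42 for Dgat2l6 and 0.17 and -0.91 for Far2. Dgat2 was higher in both knockouts by 0.14, and the other 5 members overlapped. So 4 of 10 members were lower without overlap, against 0.933% of all tested genes, and 1 was higher, against 6.32%. These shares over all genes are low in part by construction, because a gene that does not vary with the sebocyte markers takes on their spread within each group. The level is also an average of markers that differed in log2 fold change, from -1.39 for Awat1 to 0.29 for Apoc1. A member that follows Awat1 therefore falls below it in knockouts. Read against Awat1 counts, a reference chosen after the values were seen, Far2 was higher in both knockouts. Awat2 then overlapped, and Dgat2l6 stayed lower in both knockouts.

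Within the desaturase cluster, Scd3 was also read against Scd1. Scd3 had 81 and 57 counts in knockouts beside 3968 and 2525 of Scd1, and 294 and 223 counts in controls beside 5323 and 3663 of Scd1. Scd3 was thus 2.00% (95% Wilson interval 1.61% to 2.48%) and 2.21% (1.71% to 2.85%) of the Scd1 and Scd3 counts in knockouts. In controls it was 5.23% (4.68% to 5.85%) and 5.74% (5.05% to 6.51%). The intervals of the 2 groups did not overlap and those within a group did, although Scd1 itself differed 2.57-fold between the controls. The intervals cover counting error only. Relative to Scd1 the ratio in knockouts was 0.370 of that in controls. This ratio was chosen after the values were seen and has no test, and 2 libraries against 2 cannot reach a two-sided exact permutation p below 0.333. The separation also depended on the reference gene. Awat1 had 165 and 43 counts in knockouts and 314 and 201 in controls, and Scd3 read against it overlapped between the groups. Pnpla5 as reference gave the same overlap. With each of the other sebocyte markers as reference, Scd3 was lower in both knockouts than in both controls. Against Scd1, Dgat2l6, Awat2 and Far2 were also lower in both knockouts, 4 members in all and 1.23% of tested genes. None was higher without overlap, against 5.35% of tested genes, and the other 6 overlapped. These shares too are low in part by construction, since a gene that does not follow Scd1 takes on its spread between the controls. Scd2, the desaturase of brain and skin, measured 30.6 and 24.5 CPM in knockouts and 51.2 and 38.8 CPM in controls (-0.70 ± 0.19, edgeR adjusted p = 0.43). Scd4 was too scarce to test, with 9 and 18 counts in knockouts and 2 and 9 in controls.

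**Figure D4:**
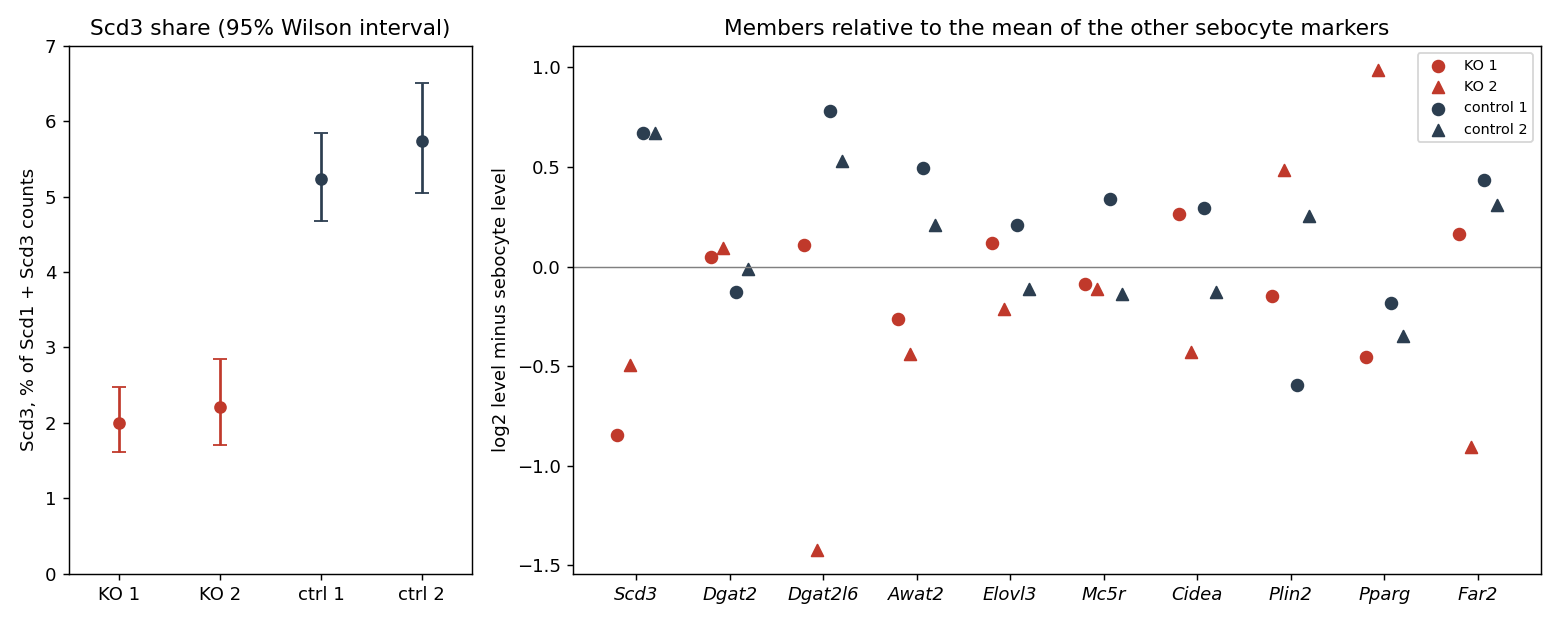
The left panel gives Scd3 as a percent of Scd1 plus Scd3 counts per library with 95% Wilson intervals, at 2.00% and 2.21% in knockouts (red) and between 5.23% and 5.74% in controls (dark). The right panel gives each member's centred log2 level minus the sebocyte level for each library, where Scd3, Dgat2l6, Awat2 and Far2 have both knockouts below both controls.

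Other genes of the same pathways did not pass the test either. Among 12 tested genes of triglyceride, wax ester and sterol ester synthesis, 7 had a log2 fold change below 0, and the median was -0.16. The 3 of highest CPM were Agpat3 and Gpat4, of glycerolipid synthesis, and Far1, the other fatty acyl-CoA reductase. They gave -0.22 ± 0.17, 0.093 ± 0.13 and -0.33 ± 0.15 (edgeR adjusted p = 0.65, 0.80 and 0.48). Far1 measured 60.8 and 56.2 CPM in knockouts and 65.7 and 81.0 CPM in controls, and so did not share the order of libraries seen for Far2. Among 21 tested genes of fatty acid synthesis, desaturation and elongation, 15 were below 0 with a median of -0.24, and 7 had both knockouts below both controls, where 23.6% of all tested genes did. Acly, Tecr and Acsl5 gave -0.29 ± 0.19, -0.22 ± 0.12 and 0.091 ± 0.15 (adjusted p = 0.59, 0.53 and 0.84). Fasn, the fatty acid synthase, measured 169 and 140 CPM in knockouts and 260 and 230 CPM in controls (-0.67 ± 0.15, adjusted p = 0.43). Its carboxylase Acaca measured 55.0 and 51.6 CPM in knockouts and 78.5 and 73.5 CPM in controls (-0.51 ± 0.12, adjusted p = 0.43). Fasn and Acaca, named after their values were seen, did not show the spread between controls that the gland enzymes had.

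Among 11 tested lipid droplet and lipolysis genes the median was 0.087, and 5 were below 0. Plin3, Mgll and Bscl2 gave 0.28 ± 0.12, -0.69 ± 0.42 and 0.15 ± 0.15 (edgeR adjusted p = 0.47, 0.57 and 0.70). Among 12 lipid transcription factors the median was -0.050, with 7 below 0. Rxra, the partner of PPARG on DNA, gave 0.10 ± 0.18, Cebpa 0.046 ± 0.33 and Srebf1 -0.28 ± 0.15 (adjusted p = 0.85, 0.96 and 0.52). Rxra measured 390 and 552 CPM in knockouts and 429 and 448 CPM in controls, with overlapping groups. The 9 sebaceous duct and upper follicle markers had a median of 0.23, and 7 were above 0. Krt17, Krt79 and Lrig1 gave 0.59 ± 0.14, 0.38 ± 0.28 and 0.089 ± 0.20 (adjusted p = 0.43, 0.63 and 0.88). The duct markers did not follow the members, and their mean centred log2 level was -0.098 and 0.39 in knockouts and 0.046 and -0.34 in controls. In the melanocortin list 8 of 9 genes were matched by symbol and none had enough counts to be tested. The ligand gene Pomc had 0 and 1 counts in knockouts and 1 and 4 in controls.

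By the Euclidean distance of centred log2 CPM over the 4 libraries, 5 genes of 11010 outside the lists lay nearest to the members' mean profile. They were Ccr4 (0.077), Btc (0.17), Sdr16c6 (0.18), Kif4 (0.19) and Ube2c (0.21). Members themselves lay between 0.31, for Mc5r, and 1.43, for Pparg. Sdr16c6 measured 35.0 and 18.5 CPM in knockouts and 67.6 and 24.7 CPM in controls (-0.78 ± 0.50, edgeR adjusted p = 0.60). Kif4 and Ube2c are genes of mitosis, so this order of libraries was not particular to gland genes, and 4 libraries can part few patterns.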

How the data were processed

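The authors deposited raw counts per gene for 4 libraries, per the labels. Per the submitters' processing notes, Trim Galore 0.6.0, cutadapt, FastQC, STAR 2.7.0e, the build GRCm38 (mm10) and DESeq2 1.26.0 were used. The counting tool and its strand setting are not named in these notes, so reads of overlapping genes are uncertain. Libraries were directional and polyA-selected, per the labels' protocols.

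Symbols, exon lengths and coordinates came from GENCODE M21. With R 4.3.3 and edgeR 4.0.16, genes were kept by filterByExpr, scaled by TMM and compared by the quasi-likelihood test (robust, no covariate) with Benjamini-Hochberg adjustment over all tested genes. SE is the log2 fold change divided by the root of F, and log2 CPM used a prior count of 2. The test was run on simulated data first. Alternatives included DESeq2 1.42.0 and limma 3.58.1 (voom). Members and gene lists were chosen with earlier results of these data known. Named genes were all members, each list's 3 genes of highest mean CPM and any called, and 5 nearest profiles of at least 2 CPM. Others were named after their values were seen. For 1 gene that this rule names, no result is reported here.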

Additional observations from a re-analysis of the deposited data

How the results depend on the processing

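Calls among the 10 members were 0 with RLE or upper quartile scaling, the filter of at least 50 counts in 2 libraries, limma-voom, the sebocyte covariate and each library left out. There were 3 without a count filter (Scd3, Dgat2l6 and Awat2), 1 with DESeq2 (Scd3) and 2 with the replicate number as a block (Scd3 at -1.86 and Far2 at -1.22, edgeR adjusted p = 0.0039 and 0.0014). The unfiltered and block fits called 1.11% and 0.568% of genes lower, against 0% without these changes. Their prior degrees of freedom were infinite and 22.6, against 4.17, so a gene's own spread weighed less. The labels do not say whether equal numbers pair libraries. Number 1 minus number 2 differences correlated at r = 0.12 between groups, across genes. The knockout was below the control of its number for 10 of 10 members at number 1 and 9 at number 2. These counts restate the order of libraries, with control 1 highest for all 10 members and knockout 2 lowest for 9. They have no share over all genes beside them. The members' median log2 fold change ran from -1.50 to 0.14 with each library left out, and was above 0 without control 1. There Dgat2 was 0.25, Elovl3 0.29, Mc5r 0.24, Cidea 0.35, Plin2 0.036 and Pparg 0.82. The lowest values with 1 library left out were -0.83, -1.34, -1.52, -1.62, -0.31 and -0.60 for these 6. Pparg was also above 0 without knockout 1 (0.28), with limma-voom (0.19), with the block (0.059) and with the covariate (0.39), as were Dgat2 (0.10), Elovl3 (0.057) and Cidea (0.095) with the covariate. The cause was not tested. Scd3, Dgat2l6, Awat2 and Far2 stayed below 0 in all 12 alternatives. Without control 1 they were -1.22, -0.68, -0.37 and -0.28. Mc5r and Pparg had too few counts for the stricter filter.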

Other observations

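Of 11 tested PPARG target genes outside the members, 9 had a log2 fold change above 0, the median was 0.23, and none passed the edgeR test. Cpt1a, which admits fatty acids to mitochondria, gave 0.50 ± 0.37, and the glycerol channel gene Aqp3 gave 0.23 ± 0.12 (edgeR adjusted p = 0.64 and 0.53). Those below 0 were Fabp5 and Cd36, named after their values were seen. Fabp5, an epidermal fatty acid carrier, measured 72.9 and 31.9 CPM in knockouts and 96.8 and 39.9 CPM in controls (-0.38 ± 0.51, edgeR adjusted p = 0.79), in the members' order of libraries. Cd36, a fatty acid receptor, measured 3.31 and 2.11 CPM in knockouts and 6.29 and 2.03 CPM in controls (-0.59 ± 0.58, adjusted p = 0.71).

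In the following genes knockout 2 stood above the other libraries. Angptl4, a secreted inhibitor of lipoprotein lipase chosen like Pdk4 and Fads1 after the values were seen, measured 8.73 and 122 CPM in knockouts and 12.5 and 8.13 CPM in controls (2.67 ± 1.26, edgeR adjusted p = 0.51). Pdk4, a kinase that restrains pyruvate oxidation, measured 3.13 and 13.5 CPM in knockouts and 2.93 and 1.80 CPM in controls. The desaturase gene Fads1 measured 12.4 and 28.6 CPM in knockouts and 7.36 and 7.35 CPM in controls (1.48 ± 0.40, adjusted p = 0.43). Knockout 2 is also the library with the lowest level of 9 of the 10 sebaceous lipid genes.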
